A study of Mus musculus with 15 samples.

Results

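The genes described here are the 7SK-like noncoding RNA ENSMUSG00002076161, the abundant noncoding RNA ENSMUSG00000119584, the RNA components of RNase MRP (Rmrp) and RNase P (Rpph1), and the 7SK regulators Hexim1, Larp7 and Mepce. They were taken by identifier or symbol from the counts of all 15 mouse cornea libraries. The 7 genes correspond to 8 of the 55357 identifiers counted, because Rmrp is annotated under 2 of them. They were chosen with their CPM (read counts scaled to a library total of 1e+06) in the 4 groups already known. Because they were chosen by measured values, their levels and differences are a description and carry no test.

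Total RNA was measured in whole cornea of OPA1+/- mice at 6 months (n = 4), OPA1+/+ mice at 6 months (n = 3), OPA1+/- mice at 3 months (n = 4) and OPA1+/+ mice at 3 months (n = 4). Opa1 encodes a GTPase of the inner mitochondrial membrane needed for mitochondrial fusion. OPA1+/- animals carry 1 wild-type allele, and the labels give neither strain, sex nor the nature of the other allele. Nor do they say whether each library came from separate animals, so the p-values given below measure the spread between these libraries. Libraries held 11673240 to 18194946 counts.

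7SK RNA is a short, highly abundant transcript of RNA polymerase III that acts as a scaffold in the nucleus. With HEXIM1 it holds the kinase P-TEFb (CDK9 with a T-type cyclin) in an inactive state, and release of P-TEFb lets RNA polymerase II leave its paused position near promoters. MEPCE caps the 5′ end of 7SK and LARP7 binds its 3′ end, and both proteins keep the RNA stable. RNase P trims the 5′ leader of precursor tRNAs, and the related RNase MRP takes part in ribosomal RNA maturation.

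The sequences are shown because the position of each RNA relative to other annotated exons decided which reads could be counted. They come from the transcripts of GENCODE release 21 (build GRCm38), with Rn7sk shown over its bases 1 to 120, Rmrp whole and Rpph1 over its bases 1 to 300, since no sequence of the build of the files was used here. In Rn7sk the capitals mark GATC, the DNA letters of the GAUC motif to which HEXIM1 binds in the 5′ hairpin, found on this strand at bases 13 to 16, 42 to 45 and 64 to 67. GATC reads the same on both strands, and 66.4% of the 4745 transcripts of 301 to 361 bases in that release hold it. In Rmrp and Rpph1 the capitals mark bases that lie under an exon of another identifier on the same strand.
Rn7sk: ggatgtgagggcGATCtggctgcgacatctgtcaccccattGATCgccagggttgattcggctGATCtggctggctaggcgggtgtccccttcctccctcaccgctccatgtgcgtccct
Rmrp: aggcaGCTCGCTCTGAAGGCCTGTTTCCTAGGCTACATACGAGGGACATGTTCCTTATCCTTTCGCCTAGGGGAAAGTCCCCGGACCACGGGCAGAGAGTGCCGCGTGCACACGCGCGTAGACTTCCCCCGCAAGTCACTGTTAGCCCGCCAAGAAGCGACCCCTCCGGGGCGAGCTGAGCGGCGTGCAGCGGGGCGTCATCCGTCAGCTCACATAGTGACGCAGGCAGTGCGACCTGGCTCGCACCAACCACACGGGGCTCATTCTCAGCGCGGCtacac
Rpph1: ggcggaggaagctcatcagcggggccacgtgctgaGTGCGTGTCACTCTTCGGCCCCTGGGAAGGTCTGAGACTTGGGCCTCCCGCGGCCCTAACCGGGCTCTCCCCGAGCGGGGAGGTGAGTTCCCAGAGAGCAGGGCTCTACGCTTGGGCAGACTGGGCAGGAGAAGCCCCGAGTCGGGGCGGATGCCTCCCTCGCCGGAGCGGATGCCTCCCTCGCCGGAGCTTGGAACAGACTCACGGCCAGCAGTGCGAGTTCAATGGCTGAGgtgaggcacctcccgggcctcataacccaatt

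ENSMUSG00002076161 carries no symbol in the names table used. In the files it covers chr9:78082585-78082915 on the minus strand (read as GRCm39), 331 bases with no exon of another gene over them. Rn7sk in release 21 lies on the same chromosome and strand, is also 331 bases long, and stands 3196 bases from Ick and 281 bases from C920006O11Rik. The identifier in the files has the same neighbours at the same distances. For this reason it is called 7SK-like here, and the match rests on position and length alone.

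**Figure D1:**
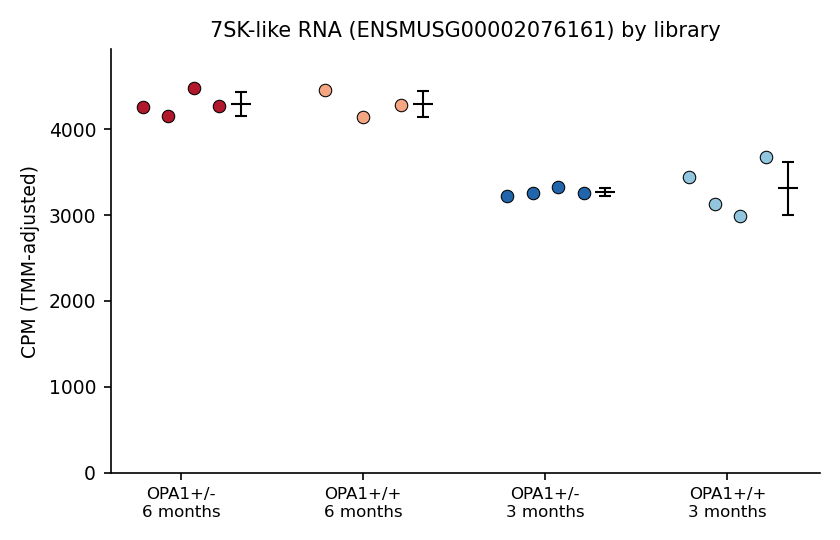
Level of the 7SK-like RNA in CPM in each library (points) with the group mean and SD (bars to the right), on an axis from 0. All 6 months libraries lie above all 3 months libraries, and within each age the genotypes overlap.

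The 7SK-like RNA was higher at 6 months than at 3 months in both genotypes, and its level did not separate the genotypes. OPA1+/- corneas at 6 months had 4257, 4151, 4483 and 4267 CPM, and OPA1+/+ corneas at 6 months had 4452, 4145 and 4279 CPM. OPA1+/- corneas at 3 months had 3226, 3258, 3329 and 3255 CPM, and OPA1+/+ corneas at 3 months had 3442, 3134, 2988 and 3681 CPM. The lowest library at 6 months (4145 CPM) was above the highest at 3 months (3681 CPM), as the plot of the 7SK-like RNA by library shows.

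Averaged over genotypes, the level was 4290 ± 132.5 CPM at 6 months (SD, n = 7) and 3289 ± 206.6 CPM at 3 months (SD, n = 8). The log2 difference was 0.38 ± 0.04 (SE), or 30.4% higher. It was 0.39 ± 0.05 within OPA1+/- and 0.37 ± 0.06 within OPA1+/+. The difference between these 2 values was 0.02 ± 0.08. Of all 15770 genes tested, 0.0951% had every 6 months library above every 3 months library. Within OPA1+/- 2.9% of genes had 6 months libraries all above 3 months libraries, and within OPA1+/+ 4.44% did. These shares are given for reference only, since the RNA was chosen for its pattern. A log2 age difference larger in absolute size was found for 4.91% of tested genes, a share that takes no account of their abundance.

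Group means were 4289 ± 139.1 CPM in OPA1+/- corneas and 4292 ± 153.8 CPM in OPA1+/+ corneas at 6 months, and 3267 ± 43.9 CPM in OPA1+/- corneas and 3311 ± 310.5 CPM in OPA1+/+ corneas at 3 months (SD). Both 6 months groups thus stood above both 3 months groups, and groups of the same age differed by less than the larger of their SDs. The genotype difference was 0.00 ± 0.06 at 6 months and -0.02 ± 0.05 at 3 months on the log2 scale. The SD of log2 CPM around the group means was 0.078, against a median of 0.146 over tested genes, and 81% of tested genes varied more. The RNA took 0.295% to 0.448% of all counts in a library.

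Per kilobase of exon the 7SK-like RNA was the second highest of 55357 identifiers, at 11350 CPM per kilobase. Krt12, the cornea-specific keratin of the epithelium, had 15430 CPM per kilobase and the mitochondrial 16S ribosomal RNA mt-Rnr2 had 10500 CPM per kilobase. The libraries had been depleted of ribosomal RNA, and the part of that step in this order was not tested. By CPM, without regard to length, the 7SK-like RNA ranked 15. Reads that map to several places were not counted, so reads shared with near-identical copies elsewhere in the genome are missing from this level to an unknown extent.

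Genes beside the 7SK-like RNA were compared between ages in the same edgeR quasi-likelihood fit, with Benjamini-Hochberg adjustment over all tested genes. C920006O11Rik, an uncharacterised transcript on one side, averaged 4.88 ± 0.41 CPM at 6 months (n = 7) and 4.65 ± 0.66 CPM at 3 months (n = 8), a log2 difference of 0.07 ± 0.10 (edgeR adjusted p = 0.816). Ick, a protein kinase gene on the other side, averaged 54.8 ± 5.15 CPM at 6 months and 55.2 ± 3.58 CPM at 3 months (log2 difference -0.02 ± 0.05, edgeR adjusted p = 0.928). Neither neighbour passed the test, and both were added after their values were seen. With the members left out, tested genes of up to 400 bases numbered 292, and the median of their log2 age differences was 0.06 with 0 called by edgeR. Among the 31 of them with a mean of at least 5 CPM the median was 0.02.

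Other cells of the eye and the stroma were checked beside this age difference. The 5 stromal markers, all detected and led by Col1a1, summed to 1403 to 1834 CPM in OPA1+/- corneas and 1423 to 1823 CPM in OPA1+/+ corneas at 6 months. At 3 months they summed to 1981 to 2333 CPM in OPA1+/- corneas and 1668 to 2310 CPM in OPA1+/+ corneas. The stromal sum was thus lower at 6 months within OPA1+/-, with overlapping ranges within OPA1+/+, and its part in the 7SK-like difference was not tested. In bulk tissue, fewer cells of a type and less RNA per cell cannot be told apart. Summed retina markers reached 147 CPM in 1 OPA1+/- library at 3 months and 141 CPM in 1 OPA1+/+ library at 6 months, against at most 22.0 CPM in the others. Without these libraries the log2 age difference of the 7SK-like RNA was 0.37.

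By the rule of highest correlation of log2 CPM over the 15 libraries, among 11022 named genes with a mean of at least 5 CPM, the genes most like the 7SK-like RNA were Ttc36, Xkr6, Ngly1, Gbp8 and Lncppara. Pearson's r ranged from 0.873 for Ttc36 to 0.804 for Lncppara, and Spearman's rho from 0.836 to 0.718 for the same genes. Once the group means were removed, r was 0.618 for Ttc36 and 0.014 to 0.329 for the other named genes. Much of the likeness was thus in the group means that the libraries share. These coefficients describe the libraries and carry no p.

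The proteins of the 7SK particle are given in the order of their roles. Hexim1, the inhibitor of P-TEFb, lies at chr11:103007057-103010551 on the plus strand. Its level was 43.7 to 53.6 CPM in OPA1+/- corneas and 47.0 to 52.1 CPM in OPA1+/+ corneas at 6 months, and 44.0 to 49.8 CPM in OPA1+/- corneas and 45.6 to 51.2 CPM in OPA1+/+ corneas at 3 months. All 4 groups overlapped. The averaged log2 difference was -0.03 ± 0.05 for genotype and 0.04 ± 0.05 for age.

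Larp7, which encodes the protein bound to the 3′ end of 7SK, lies at chr3:127330363-127346998 on the minus strand. It ranged over 12.4 to 13.5 CPM in OPA1+/- corneas and 11.3 to 12.5 CPM in OPA1+/+ corneas at 6 months, and over 11.9 to 12.7 CPM in OPA1+/- corneas and 11.2 to 15.7 CPM in OPA1+/+ corneas at 3 months. The OPA1+/+ corneas at 3 months held both the lowest and the highest library. The averaged log2 difference was 0.02 ± 0.07 for genotype and 0.00 ± 0.07 for age.

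Mepce, which encodes the 7SK capping enzyme, lies at chr5:137780168-137785917 on the minus strand. Its libraries separated by genotype at 6 months. At 6 months OPA1+/- corneas had 42.9, 42.1, 43.3 and 44.8 CPM, and OPA1+/+ corneas had 36.1, 39.3 and 40.3 CPM. At 3 months OPA1+/- corneas had 44.9, 43.2, 39.7 and 42.4 CPM, and OPA1+/+ corneas had 39.4, 38.1, 39.6 and 40.2 CPM. The genotypes did not overlap at 6 months, where 5.71% of tested genes had OPA1+/- libraries all above OPA1+/+ libraries. At 3 months 1 OPA1+/- library fell within the OPA1+/+ range. Over both ages Mepce averaged 42.9 ± 1.63 CPM in OPA1+/- corneas (SD, n = 8) and 39.0 ± 1.46 CPM in OPA1+/+ corneas (SD, n = 7). The log2 difference was 0.17 ± 0.06 at 6 months, 0.12 ± 0.05 at 3 months and 0.14 ± 0.04 averaged, or 10.2% higher in OPA1+/-. A log2 genotype difference larger in absolute size was found for 25.2% of tested genes. With age Mepce differed by 0.00 ± 0.04.

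**Figure D2:**
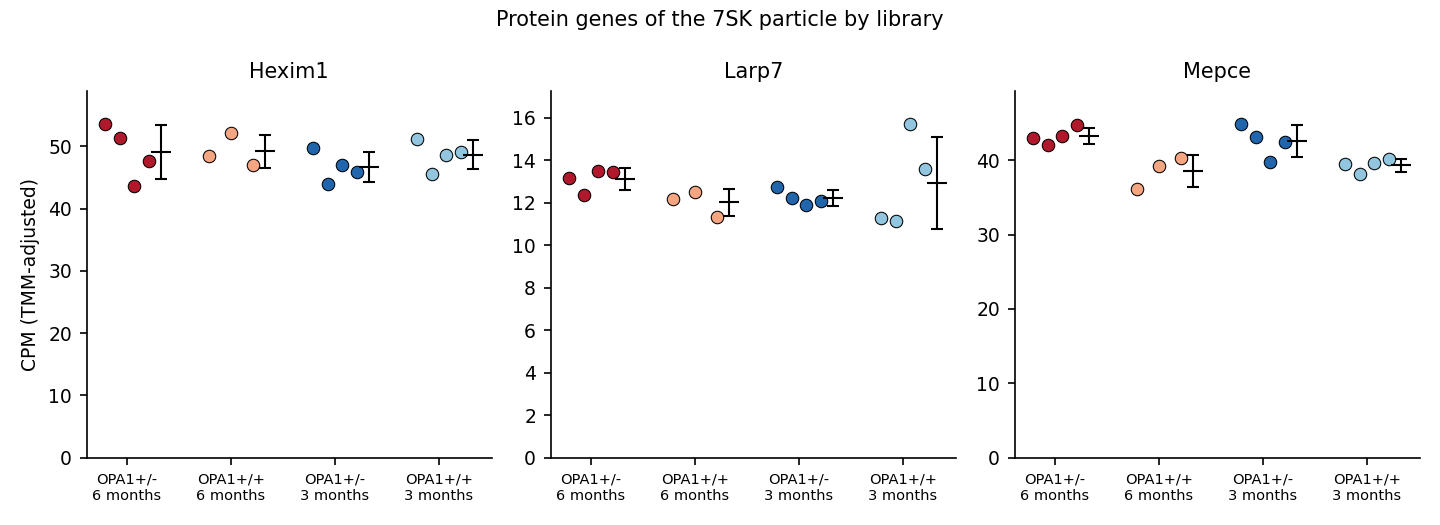
Levels of Hexim1, Larp7 and Mepce in CPM in each library (points) with the group mean and SD (bars to the right), each panel on its own axis from 0. Of the genotype pairs of the same age, the OPA1+/- and OPA1+/+ points of Mepce at 6 months alone are separate, and 1 OPA1+/- library of Mepce at 3 months reaches into the OPA1+/+ range.

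Per kilobase of exon the regulators stood at 13.8 CPM (Hexim1), 11.6 CPM (Mepce) and 5.33 CPM (Larp7). The SD of log2 CPM around the group means was 0.131 for Larp7, 0.092 for Hexim1 and 0.058 for Mepce. Counting error alone was 7.68% of the mean count for Larp7, 3.92% for Hexim1 and 4.25% for Mepce. It was not separated from these SDs, so they do not rank the regulators by variation between libraries. Correlations of the regulators with the 7SK-like RNA changed when 2 libraries were left out. Pearson's r with it over 15 libraries was 0.213 for Hexim1, 0.030 for Mepce and -0.007 for Larp7, with Spearman's rho of 0.039, 0.118 and 0.129 in the same order. Without the 2 libraries farthest from the median of the 7SK-like RNA, r was 0.498 for Hexim1, -0.134 for Mepce and 0.342 for Larp7. Each pair shares its library totals, and the coefficients are a description.

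The genes most like Mepce by the same rule were Setbp1, Crim1, Snhg1, Sfmbt1 and Pdpn, with Pearson's r of 0.865 to 0.897 and Spearman's rho of 0.875 to 0.925. Those most like Larp7 were Rad50, Msh3, Cdc7, Tpr and Xpo5 (r 0.823 to 0.921, rho 0.721 to 0.925), and those most like Hexim1 were Gm44891, Atrn, Yif1b, Smug1 and Atg4b (r 0.720 to 0.828, rho 0.661 to 0.83). After removal of the group means, r was 0.806 to 0.924 for the Larp7 set, 0.699 to 0.854 for the Hexim1 set and 0.620 to 0.833 for the Mepce set. The spread of Larp7 lay mostly in OPA1+/+ corneas at 3 months (n = 4), with an SD of 2.16 CPM. Its SD was 0.363 to 0.613 CPM in the other groups, so r for the Larp7 set rests largely on those 4 libraries.

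**Figure D3:**
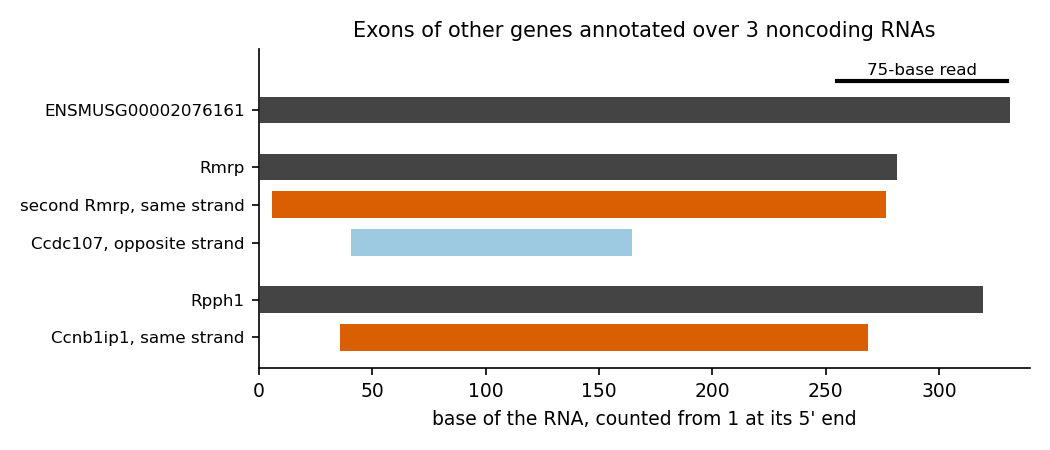
The 7SK-like RNA, Rmrp and Rpph1 (dark bars) drawn to scale in bases from their 5′ end, with exons of other identifiers annotated over them on the same strand (orange) and on the opposite strand (blue), and a read of 75 bases for scale. The 7SK-like RNA is free of overlaps, 271 of the 281 bases of Rmrp are under its second identifier, and 233 of the 319 bases of Rpph1 are under a Ccnb1ip1 exon.

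Rmrp had 0 counts in all 15 libraries under both of its identifiers. The identifiers cover chr4:43492783-43493063 (281 bases) and chr4:43492788-43493058 (271 bases) on the minus strand, and they share 271 bases. The longest stretch of Rmrp outside the shared bases was 5 bases, whereas reads were 75 bases long. The authors' counting command has no option to assign a read that overlaps exons of more than 1 gene. A count of 0 here therefore sets no limit on the level of the RNA, which these counts do not measure in any group. Exons of Ccdc107 also cover 124 bases on the opposite strand.

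Rpph1 gave 12 to 34 counts per library at chr14:51044906-51045224 on the minus strand. A Ccnb1ip1 exon on the same strand covers its bases 36 to 268, which leaves 86 bases free in stretches of at most 51 bases, shorter than a read. No read of 75 bases lying within the RNA could therefore be assigned to it, and these counts do not measure the level of Rpph1 in any group. The counts that were assigned came to 1.35 to 2.66 CPM in OPA1+/- corneas and 1.57 to 1.63 CPM in OPA1+/+ corneas at 6 months, and 1.17 to 1.53 CPM in OPA1+/- corneas and 0.943 to 1.81 CPM in OPA1+/+ corneas at 3 months. The ranges overlapped in each comparison of genotype or age, with counting error alone at 22.0% of the mean count. Ccnb1ip1 itself averaged 0.606 CPM over all libraries. Parp2, annotated 74 bases from Rpph1 and added after its values were seen, averaged 19.7 ± 0.58 CPM at 6 months (n = 7) and 20.1 ± 1.50 CPM at 3 months (n = 8). It did not pass the test for age (log2 difference -0.03 ± 0.06, edgeR adjusted p = 0.896). The map of overlapping exons shows that most of Rmrp and Rpph1 lies under other identifiers and that the 7SK-like RNA does not.

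ENSMUSG00000119584 was the most variable of these genes between libraries. It covers chr17:40157244-40159092 on the plus strand, 1849 bases, and is left under its identifier. Gm42418, a lincRNA of 1831 bases in release 21 (GRCm38), lies on the same chromosome and strand and has the same right neighbour, AC188608.1, at 71728 bases against 72315 bases in the files, but another left neighbour. RefSeq places the pseudogene Rn18s-rs5, of 1849 bases, on the same chromosome of GRCm38 with other neighbours on both sides. Length and both neighbours matched in neither case, so no symbol was given. OPA1+/- corneas at 6 months had 6730, 6728, 3012 and 3122 CPM, and OPA1+/+ corneas at 6 months had 762, 994 and 5110 CPM. OPA1+/- corneas at 3 months had 834, 1052, 1679 and 1312 CPM, and OPA1+/+ corneas at 3 months had 1022, 3722, 4591 and 1233 CPM. Libraries of the same group thus differed up to 6.71 times (OPA1+/+, 6 months).

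Group means were 4898 ± 2115 CPM in OPA1+/- corneas and 2289 ± 2446 CPM in OPA1+/+ corneas at 6 months, and 1219 ± 364 CPM in OPA1+/- corneas and 2642 ± 1786 CPM in OPA1+/+ corneas at 3 months (SD). The genotype difference was 1.10 ± 0.74 at 6 months and -1.12 ± 0.67 at 3 months on the log2 scale. Single OPA1+/+ libraries moved both values. Leaving out replicate 3 at 6 months gave 2.48 for the value at 6 months, while leaving out replicate 1 of that age gave 0.68. For 3 months the value dropped in size to -0.72 once replicate 3 of that age was left out. Age within OPA1+/- was the comparison in which its groups did not overlap, with a log2 difference of 2.01 ± 0.69 (2.9% of tested genes had 6 months libraries all above), and within OPA1+/+ the age difference was -0.21 ± 0.72. That last value had no stable direction, since it was -1.59 when OPA1+/+ replicate 3 at 6 months was left out, but 0.21 when replicate 1 of the same group was. The SD of log2 CPM around the group means was 0.948, and 0.545% of tested genes varied more.

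**Figure D4:**
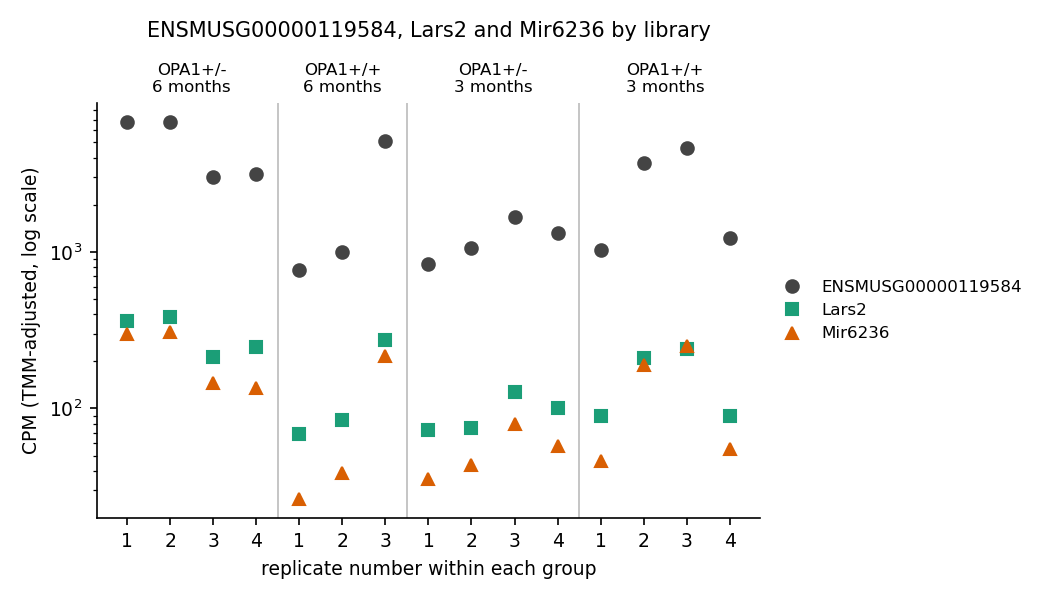
Levels of ENSMUSG00000119584 (circles), Lars2 (squares) and Mir6236 (triangles) in CPM on a log axis, for each library in its group. The symbols move together from library to library, and the span within OPA1+/+ at 6 months runs from 762 to 5110 CPM for ENSMUSG00000119584.

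Mir6236, a microRNA gene, and Lars2, the gene of the mitochondrial leucyl-tRNA synthetase, had the most similar patterns. Pearson's r over the 15 libraries was 0.995 for Mir6236 and 0.990 for Lars2, with Spearman's rho of 0.986 and 0.968. After removal of the group means r was 0.998 for Mir6236 and 0.991 for Lars2. Mir6236 had 297, 307, 146 and 135 CPM in OPA1+/- corneas and 26.4, 38.8 and 218 CPM in OPA1+/+ corneas at 6 months. Lars2 had 361, 382, 212 and 247 CPM in OPA1+/- corneas and 68.8, 84.0 and 276 CPM in OPA1+/+ corneas at 6 months. The same libraries were high and low for all 3 identifiers. Whether the reads counted under them come from sequence that they share was not tested. The next genes of the rule, Cdc27, Prrg4 and Gjb2, had r of 0.822, 0.805 and 0.786 and rho of 0.796, 0.825 and 0.768. Ribosomal RNA had been removed with a depletion kit before library preparation, and the part of that step in these values was not tested. With log2 CPM of ENSMUSG00000119584 as a covariate, a fit chosen after seeing the data, the age difference of the 7SK-like RNA was 0.42 averaged over genotypes and 0.49 within OPA1+/-. Pearson's r between the 7SK-like RNA and ENSMUSG00000119584 was 0.23 over the 15 libraries, with Spearman's rho of 0.096. After removal of the group means r was -0.588.

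The genes around these members were read from 7 lists of 114 genes, of which 108 were found in the files and 103 passed the filter on low counts. The lists were chosen with earlier results of these data known, so the shares and p-values for their genes are no independent test. With genotype averaged over both ages 2 of the 103 were called (1.94%), against 0.793% of all tested genes. One was higher and one lower in OPA1+/-. At an unadjusted p under 0.05 there were 14, against 12.4% of all tested genes. In the other comparisons edgeR called 0 of the 103, against 0.323% of all genes for genotype at 6 months, 0.00634% for genotype at 3 months, 0.412% for age and 0% for the interaction. At an unadjusted p under 0.05 it had 9 listed genes for genotype at 6 months (10.2% of all tested genes passed), 9 at 3 months (9.03%), 15 for age (11.9%) and 7 for the interaction (6.91%). DESeq2 called 2, 1, 1 and 0 listed genes in the same order.

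Both called genes are noncoding. Snhg1, a host gene of small nucleolar RNAs, was higher in OPA1+/-, at 18.4, 19.2, 21.3 and 22.1 CPM in OPA1+/- corneas and 15.8, 15.6 and 17.3 CPM in OPA1+/+ corneas at 6 months. At 3 months it had 20.0, 19.7, 18.7 and 18.4 CPM in OPA1+/- corneas and 16.9, 15, 17.1 and 17.3 CPM in OPA1+/+ corneas. Every OPA1+/- library was above every OPA1+/+ library, a pattern found with OPA1+/- higher in 0.108% of tested genes. The averaged log2 difference was 0.27 ± 0.06 (edgeR adjusted p = 0.0312). The call was lost when any of 7 single libraries was left out. These were, at 6 months, OPA1+/- replicates 3 (0.25) and 4 (0.24) and OPA1+/+ replicates 1 (0.26) and 2 (0.25), and at 3 months OPA1+/- replicates 1 (0.25) and 2 (0.26) and OPA1+/+ replicate 2 (0.24). It was also lost without the libraries with retina markers (0.27).

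mt-Rnr2, the mitochondrial 16S ribosomal RNA, was lower in OPA1+/-. At 6 months it had 15380, 16220, 15930 and 15350 CPM in OPA1+/- corneas and 18120, 16480 and 17230 CPM in OPA1+/+ corneas. At 3 months it had 14740, 16070, 16040 and 14800 CPM in OPA1+/- corneas and 17750, 18790, 17640 and 18740 CPM in OPA1+/+ corneas. The genotypes did not overlap, and 0.0698% of tested genes had OPA1+/- libraries all below OPA1+/+ libraries. The averaged log2 difference was -0.19 ± 0.03 (edgeR adjusted p = 0.0141). Without the libraries with retina markers it was -0.17 and no longer passed. mt-Rnr1, the 12S ribosomal RNA from the same precursor, had a log2 difference of -0.06 ± 0.04 (edgeR adjusted p = 0.600). Ribosomal RNA was depleted before library preparation, and the part of that step in these mitochondrial values was not tested.

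**Figure D5:**
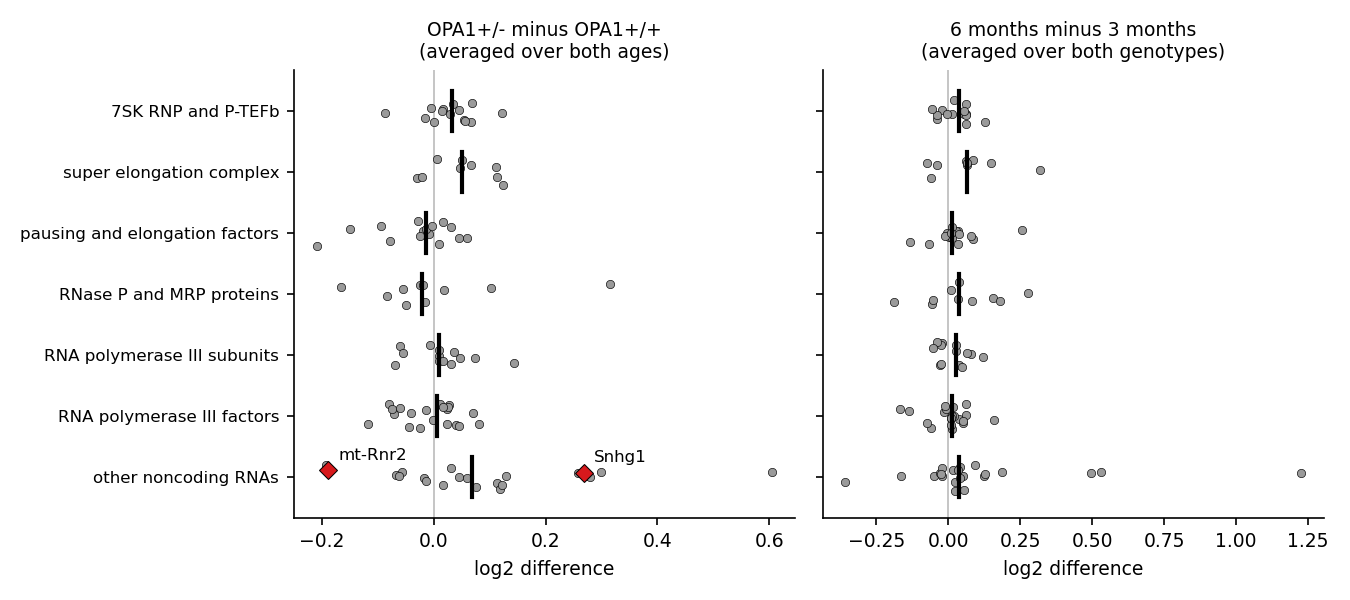
Log2 differences of the tested genes of the 7 lists (points, scattered vertically for display) for OPA1+/- minus OPA1+/+ on the left and 6 months minus 3 months on the right, with the list median as a black bar and called genes as red diamonds. Called genes are mt-Rnr2 and Snhg1, both for genotype, and the list medians lie between -0.02 and 0.07.

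Partners of the 7SK particle and P-TEFb formed a list of 14 genes, all tested. The median log2 difference was 0.03 for genotype and 0.04 for age, against 0.00 over all tested genes in both. Cdk9, the kinase of P-TEFb, averaged 28.4 ± 1.49 CPM in OPA1+/- corneas (n = 8) and 28.1 ± 1.51 CPM in OPA1+/+ corneas (n = 7). Its cyclin partner Ccnt1 averaged 69.1 ± 2.55 CPM in OPA1+/- corneas and 69.5 ± 3.85 CPM in OPA1+/+ corneas, and both were within their spread. The smallest p of the list for genotype belonged to Syncrip, an RNA-binding protein, at 116 ± 7.61 CPM in OPA1+/- corneas and 105 ± 11.5 CPM in OPA1+/+ corneas (log2 difference 0.12 ± 0.05, edgeR adjusted p = 0.338). Hnrnpa2b1, a nuclear ribonucleoprotein, followed with 0.05 ± 0.03 (edgeR adjusted p = 0.451).

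The super elongation complex, which carries active P-TEFb to paused polymerase, had 9 of 10 genes tested and a median of 0.05 for genotype and 0.07 for age. Ell2, an elongation factor, averaged 72.5 ± 4.18 CPM in OPA1+/- corneas and 66.0 ± 6.80 CPM in OPA1+/+ corneas (log2 difference 0.12 ± 0.05, edgeR adjusted p = 0.240). Mllt3, a chromatin reader of the complex, had 0.11 ± 0.05 (edgeR adjusted p = 0.317). Among 15 pausing and elongation factors the median was -0.01 for genotype and 0.02 for age. Leo1, of the PAF1 complex, averaged 17.4 ± 1.86 CPM in OPA1+/- corneas and 19.9 ± 3.34 CPM in OPA1+/+ corneas (log2 difference -0.21 ± 0.07, edgeR adjusted p = 0.155). It averaged 20.2 ± 3.21 CPM at 6 months and 17.1 ± 1.50 CPM at 3 months (0.26 ± 0.07, edgeR adjusted p = 0.0864). Ctr9 of the same complex had a genotype difference of -0.09 ± 0.04 (edgeR adjusted p = 0.385).

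Of the 11 protein subunits of RNase P and MRP 10 were tested, with a median of -0.02 for genotype and 0.04 for age. Rpp38 averaged 4.04 ± 0.59 CPM in OPA1+/- corneas and 3.20 ± 0.54 CPM in OPA1+/+ corneas (log2 difference 0.32 ± 0.12, edgeR adjusted p = 0.278), and Rpp30 had -0.17 ± 0.08 (edgeR adjusted p = 0.431). The 13 subunits of RNA polymerase III, which transcribes 7SK, Rmrp and Rpph1, had medians of 0.01 for genotype and 0.03 for age. Polr3a, the largest subunit, had -0.07 ± 0.05 (edgeR adjusted p = 0.629). The 20 factors of RNA polymerase III, among them the SNAPc subunits that act at 7SK-type promoters, had medians of 0.01 (both comparisons). Gtf3c1, a subunit of TFIIIC, averaged 164.5 ± 9.51 CPM in OPA1+/- corneas and 178 ± 7.59 CPM in OPA1+/+ corneas (-0.12 ± 0.03, edgeR adjusted p = 0.108), and Pou2f1, the transcription factor OCT1, had -0.08 ± 0.04 (edgeR adjusted p = 0.520).

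The remaining list held 31 other noncoding RNAs, of which 25 were found and 22 tested. Scarna10 and Rnu3a had 0 counts in all libraries, and Rnu11 was too low to be tested. Overlapping exons were not checked for these RNAs, so the 0 counts do not show that they were absent. Malat1 and Neat1, long RNAs of nuclear speckles and paraspeckles, did not pass. Malat1 averaged 23270 ± 1153 CPM at 6 months (n = 7) and 22830 ± 1615 CPM at 3 months (n = 8), with an age difference of 0.02 ± 0.04 (edgeR adjusted p = 0.881). Neat1 averaged 1019 ± 51.4 CPM at 6 months and 1011 ± 46.4 CPM at 3 months (0.02 ± 0.03, edgeR adjusted p = 0.878). Rny1, a component of Ro particles, had the highest averaged genotype difference of the list, 0.61 ± 0.28, at a mean of 2.66 CPM (edgeR adjusted p = 0.386).

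The markers of cornea were present in every library. The 6 epithelial markers summed to 60790 to 72870 CPM, led by Krt12 at 26070 to 32860 CPM, and the 4 endothelial markers, led by Col8a2, summed to 635 to 764 CPM. Conjunctival markers, led by Krt13, summed to 368 to 752 CPM. Lens markers, led by Cryaa, summed to 4.49 to 108 CPM, the highest in 1 OPA1+/- library at 3 months. Leukocyte markers, led by Cd68, summed to 19.2 to 27.3 CPM, blood markers, led by Alas2, to at most 3.13 CPM, and muscle markers, led by Tnnt3, to at most 3.79 CPM. Opa1 stood at 46.9 to 49.1 CPM in OPA1+/- corneas and 66.8 to 73.3 CPM in OPA1+/+ corneas at 6 months, and at 45.4 to 57.7 CPM in OPA1+/- corneas and 65.1 to 70.2 CPM in OPA1+/+ corneas at 3 months, and no library went against its label.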

How the data were processed

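Total RNA from 15 cornea libraries (RIN above 8.8 per the labels) was depleted of ribosomal RNA and sequenced as single strand-specific reads of 75 bases, per the labels' protocols. The authors deposited whole-number counts of reads for each gene, made with featureCounts 2.0.1 over exons per the file headers, with the reverse-strand setting, GENCODE mouse release 28, and no option for reads that map to several places or overlap several genes. The submitters' processing notes name mm10 and DESeq2, with the aligner not given in the sources used here. Coordinates are those of the files, read as GRCm39. Symbols from a names table matched 52081 of 55357 identifiers.

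CPM values are counts scaled to 1e+06 of a library total adjusted by TMM factors. One edgeR 4.0.16 quasi-likelihood fit (R 4.3.3, robust, 1 mean per group, 11 residual degrees of freedom) covered the 15770 genes kept by filterByExpr, and adjusted p-values are Benjamini-Hochberg values over all of them with a threshold of 0.05. Positive log2 differences mean higher in OPA1+/- or at 6 months. Errors are SE for log2 differences and SD for CPM. The same procedure was tested on simulated counts.

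The members and gene lists were chosen with earlier results of these data known, so members have no test. Of each list, genes past the threshold in any comparison were named, or else the 2 with the smallest p for averaged genotype; 1 gene that this rule names is not reported here. Cdk9, Ccnt1, Malat1, Neat1, Rny1, mt-Rnr1 and genes next to members were added after their values were seen. The 5 genes most like each member by Pearson's r of log2 CPM (prior count 2) were named, except for Rmrp and Rpph1, whose levels the counts do not measure. Library depth of 11673240 to 18194946 counts puts the limit that a count of 0 allows (3 counts, counting error only) at 0.165 to 0.257 CPM. This limit does not apply to Rmrp, whose reads could not be assigned. Whether it applies to Scarna10 and Rnu3a is not known, since overlapping exons were not checked for them. Libraries with the same replicate number were about as alike as those with different numbers (correlation of deviations -0.139 to 0.232 and -0.182 to 0.263). These correlations cannot exclude pairing, and the main fit took no account of replicate numbers. Alternatives were DESeq2 1.42.0, its size factors, other filters and library totals, the replicate number as a block, only the 2 groups compared, each library left out, and, added after seeing the data, the covariate and the fit without 2 libraries with summed retina markers above 50 CPM.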

Additional observations from a re-analysis of the deposited data

How the results depend on the processing

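Of 822 member differences under other settings 819 moved by less than the replicate SD. The exceptions were the age difference of the 7SK-like RNA within OPA1+/- with the covariate for ENSMUSG00000119584 (0.49) and the 2 values of ENSMUSG00000119584 without OPA1+/+ replicate 3 at 6 months that the report gives (2.48 and -1.59). The age difference of the 7SK-like RNA averaged over genotypes ran from 0.36 to 0.42 over 23 alternatives. Leaving out 1 library moved it between 0.36 and 0.41, between 0.37 and 0.41 within OPA1+/-, and between 0.32 and 0.42 within OPA1+/+. In the same fits its genotype difference ran from -0.03 to 0.03 at 6 months, from -0.08 to 0.03 at 3 months and from -0.04 to 0.01 averaged.

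Counts of called genes depended on the setting, and the cause was not tested. For genotype at 3 months the 1 gene became 45 with no filter, 0 with the replicate block, 0 with only the 2 groups compared and 43 by DESeq2. For genotype at 6 months the 51 became 140 with no filter, 197 with only the 2 groups compared and 177 by DESeq2. For averaged genotype the 125 became 256 with no filter, 19 without the retina-marker libraries and 314 by DESeq2. For age the 65 became 216 with no filter, 42 with the replicate block, 17 with the covariate, 250 without the retina-marker libraries and 240 by DESeq2. For the interaction the 0 became 19 with no filter and 20 by DESeq2. Of the listed genes, 0 at 3 months became 1 with no filter and 1 by DESeq2, and 0 at 6 months became 2 with no filter, 1 with only the 2 groups compared and 2 by DESeq2. The 2 for averaged genotype became 1 with the replicate block, which ended the call of Snhg1 (0.26), and 0 without the retina-marker libraries. The 0 for age became 1 with no filter, 1 without the retina-marker libraries and 1 by DESeq2.

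Leaving out each library gave 0 to 19 genes for genotype at 3 months, 2 to 84 at 6 months, 16 to 237 averaged, 18 to 230 for age and 0 to 10 for the interaction. Of the listed genes these fits called 0 to 1, 0 to 1, 1 to 2, 0 to 2 and 0 to 0.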
